A study of Mus musculus with 31 samples.

Results

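The endothelial microRNA miR-126 was followed through both of its mature products, mmu-miR-126-3p and mmu-miR-126-5p, in lungs of mice exposed to cigarette smoke or to room air. The arms were taken by their exact names in the scanner files, with all their probes. They are 2 of the 650 miRNAs named on the array and 4 of its 1857 probes. The series holds 31 arrays, each a 1-colour Agilent miRNA array hybridised with Cy3-labelled total RNA of whole lung. The mice were female BALB/c, a common inbred laboratory strain. Smoke-exposed lungs were collected at 4 weeks (n = 4), 6 weeks (n = 4), 8 weeks (n = 4) and 12 weeks (n = 3), and the control lungs of room-air mice at 4, 6, 8 and 12 weeks (n = 4 each). No genotype, transgene or drug is named for any group, and the sources used here give neither the age of the mice nor the dose of smoke. Whether each array holds a different mouse is likewise not stated, so the p-values below measure the spread between these arrays, which may be technical.

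A miRNA is a short RNA that, loaded into an Argonaute protein, pairs through its seed (bases 2 to 8) with messenger RNAs and lowers their translation or stability. miR-126 is made from an intron of Egfl7, a gene for a secreted protein of endothelial cells, and is one of the most used markers of endothelium, the cell layer that lines blood vessels and forms much of the lung's gas-exchange surface. In mouse and zebrafish, miR-126-3p represses Spred1 and Pik3r2, which restrain growth factor signalling, and its loss leaves vessels leaky. In mouse, miR-126-5p represses Dlk1, an inhibitor of Notch, in endothelial cells of large arteries.

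The seed of each strand is what separates the arms, so the precursor and the mature strands held by RefSeq (GRCm38.p6) are shown. The array names only the arms of miR-126, which RefSeq now calls Mir126a. The hairpin lies at chr2:26591357-26591429 on the plus strand, inside Egfl7, with the 22 bases of the 3p arm (hairpin positions 46 to 67) in capitals.
Mir126a hairpin: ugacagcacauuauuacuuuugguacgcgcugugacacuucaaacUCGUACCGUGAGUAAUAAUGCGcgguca
mmu-miR-126a-3p, chr2:26591402-26591423, seed in capitals: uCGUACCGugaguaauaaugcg
The seed of the 3p arm was found in 0 other of the 1679 mature entries of the table. The opposite strand of the same stretch encodes a second annotated miRNA, Mir126b, whose hairpin is contained in the reverse complement of the Mir126a hairpin. The RefSeq entries used held no mature sequence for the other arm of miR-126, so its seed is not shown. The mature products of Mir126b are shown because they come from the same genomic bases, and neither is an arm followed here. Their whole seeds differ from that of the 3p arm. The bases CGUACC, however, lie in the seed of mmu-miR-126b-3p and in that of the 3p arm, at shifted positions.
mmu-miR-126b-5p, chr2:26591399-26591420, minus strand, seed in capitals: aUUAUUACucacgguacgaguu
mmu-miR-126b-3p, chr2:26591363-26591385, minus strand, seed in capitals: cGCGUACCaaaaguaauaaugug

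Each arm was read by 2 probes with 10 spots each. All 10 spots of each of the 4 probes were well above background on all 31 arrays, and none was saturated. The spots of 1 probe on 1 array varied with a median coefficient of variation of 3.87% and 4.02% for the 3p probes (A_54_P2286 and A_54_P2285) and of 4.99% and 6.44% for the 5p probes (A_54_P1035 and A_54_P4367). The brighter probe of each arm, named first in each pair, stood for the arm. A level is given below as log2 of the probe's signal over the 75th percentile signal of its array, so that 0 is a signal equal to that percentile.

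miR-126-3p was among the brightest miRNAs of these lungs in smoke and control alike. Its median level was 4.84 on the 15 smoke arrays (lowest 4.61, highest 4.92) and 4.91 on the 16 control arrays (lowest 4.68, highest 5.13). At the median, its signal was 28.7 times the 75th percentile on smoke arrays and 30.05 times on control arrays. The levels overlapped, with 2 smoke arrays below every control array and 7 control arrays above every smoke array. By signal, miR-126-3p stood in place 2 of the 650 miRNAs on 28 of the 31 arrays, behind miR-451, the miRNA of red blood cells. It stood in place 3 on smoke arrays 1 and 2 of 12 weeks, where miR-21-5p, a broadly expressed miRNA, was also brighter. It stood in place 4 on smoke array 2 of 4 weeks, behind let-7f-5p and let-7a-5p. The place on the 16 control arrays was always 2.

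miR-126-5p had a median level of 0.76 on smoke arrays (lowest 0.59, highest 1.02) and 0.82 on control arrays (lowest 0.63, highest 1.06). That is 1.70 times the 75th percentile on smoke arrays and 1.77 times on control arrays. Its place by signal ran between 41 and 49 of 650 on smoke arrays and between 38 and 48 on control arrays. Probes of different sequence capture their targets with different efficiency, so these places and the distance between the arms describe brightness and not abundance.

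Both arms varied little between arrays of the same group. The SD within groups was 0.09 (log2) for miR-126-3p, the 4th lowest of the 207 miRNAs detected on every array, and 0.11 for miR-126-5p, the 21st lowest. The median miRNA had an SD of 0.21. Over all 31 arrays miR-126-3p spanned 0.51 and miR-126-5p 0.47, where the median miRNA spanned 1.11. Small differences between groups are therefore set against a small spread for these miRNAs.

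**Figure D1:**
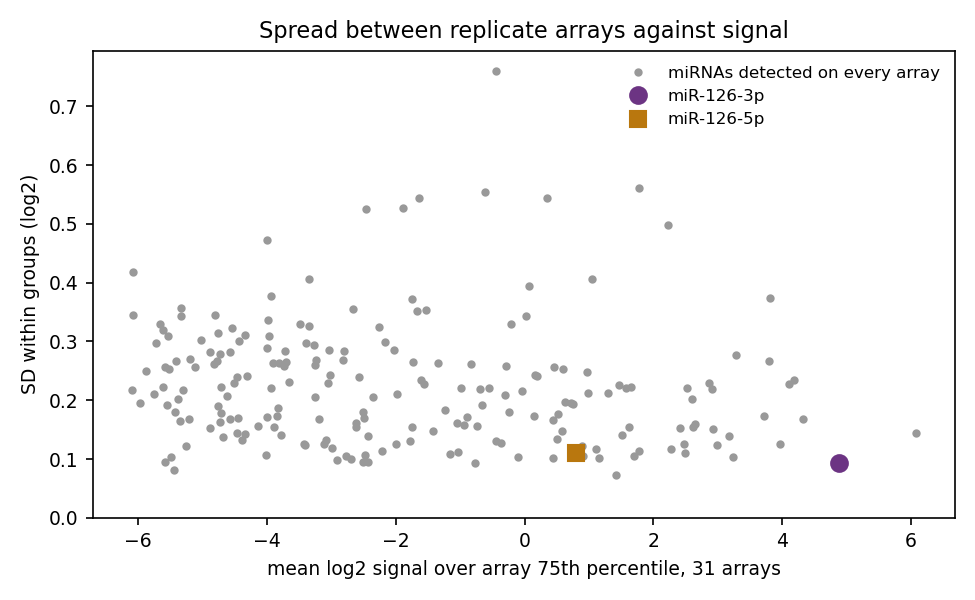
Spread between replicate arrays (SD within groups, log2, vertical axis) against mean level over the 31 arrays (log2 signal over the array's 75th percentile, horizontal axis), 1 point for each of the 207 miRNAs detected on every array. miR-126-3p (circle, SD 0.09) and miR-126-5p (square, SD 0.11) lie near the lower edge, below the median SD of 0.21.

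The comparison of smoke with room air asked whether either arm changed with exposure. Averaged over the 4 durations with equal weight, miR-126-3p was lower in smoke: it averaged 4.81 in smoke lungs and 4.94 in control lungs, a log2 difference of -0.13 (SE 0.036, 95% confidence interval -0.20 to -0.05) or 0.916 of the control signal (limma, adjusted p = 0.00876 over 272 miRNAs). A permutation test of the arrays within durations gave p = 0.00253 (two-sided, 0.038 after Benjamini-Hochberg adjustment over 15 comparisons of the arms and their difference). The fall passed the test but was small: 27.6% of the 272 miRNAs tested passed it in either direction and 12.1% were called lower, and 21.0% of them had a lower difference than miR-126-3p. The median difference of all tested miRNAs was -0.01, so miR-126-3p lay 0.12 below it on the log2 scale. In RNA of whole lung, fewer endothelial cells and less miR-126 per cell cannot be told apart.

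The call on the average depended on how arrays were scaled. Of 19 other settings, 13 moved the value and all 13 kept it below 0, but the adjusted p was 0.0897 with quantile scaling, 0.184 with the 75th percentile taken over all probes, 0.191 with no scaling and 0.401 with normexp background correction. Quantile scaling gives equal ranks equal levels, and the brighter 3p probe held its median rank on 28 of the 31 arrays. That setting therefore had little room to show a 3p difference.

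miR-126-5p was not called. It averaged 0.77 in smoke lungs and 0.83 in control lungs over the 4 durations, a log2 difference of -0.06 (SE 0.041, 95% confidence interval -0.14 to 0.02, limma adjusted p = 0.305, permutation p = 0.12). The interval reaches past the size of the 3p difference. With the scanner's summed signal the 5p difference was -0.15 and passed (limma adjusted p = 0.00634), where the median of all miRNAs was -0.11. That setting called 109 of the 272 miRNAs on average.

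At 4 weeks the arms differed little between smoke and control. miR-126-3p had levels of 4.80, 4.90, 4.87 and 4.78 on smoke arrays 1 to 4, and of 4.90, 4.87, 4.85 and 4.68 on control arrays 1 to 4. miR-126-5p had levels of 0.79, 0.64, 0.65 and 0.91 on smoke arrays, and of 0.84, 0.85, 0.77 and 0.73 on control arrays. The groups overlapped in both arms. The log2 differences were 0.01 (SE 0.070, limma adjusted p = 0.917) for 3p and -0.05 (SE 0.081, adjusted p = 0.647) for 5p. At this duration 38.2% of tested miRNAs passed the test and the median difference of all tested miRNAs was 0.17, so that 3p lay 0.16 and 5p 0.22 below that median. The deposited series table gave a 3p difference of the opposite sign, -0.27, which passed the test (limma adjusted p = 0.0172). In its values 96 of the 272 miRNAs were called at 4 weeks.

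At 6 weeks the smoke arrays lay close together in miR-126-3p and the control arrays did not. miR-126-3p had levels of 4.85, 4.92, 4.82 and 4.86 on smoke arrays, and of 4.84, 4.82, 5.08 and 5.13 on control arrays. Control arrays 3 and 4 were above all smoke arrays, and control array 1 was within the smoke range and control array 2 (4.82) was just below the lowest smoke array. miR-126-5p had levels of 0.77, 1.02, 0.72 and 0.74 on smoke arrays, and of 0.93, 0.80, 0.90 and 1.06 on control arrays, where smoke array 2 alone reached the control range. The log2 differences were -0.10 for 3p (SE 0.070, limma adjusted p = 0.469) and -0.11 for 5p (SE 0.081, adjusted p = 0.476), beside 8.09% of miRNAs called. The 3p difference was -0.14, -0.15, -0.06 and -0.05 without control array 1, 2, 3 and 4 in turn. The 5p difference was -0.18 without smoke array 2 and -0.07 without control array 4. With the scanner's summed signal both arms passed (3p -0.25, limma adjusted p = 0.042, and 5p -0.28, adjusted p = 0.0341), where the median of all miRNAs was -0.13. That setting called 23 of the 272 miRNAs at 6 weeks.

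At 8 weeks the control arrays lay close together in miR-126-3p and the smoke arrays did not. The levels were 4.84, 4.61, 4.63 and 4.91 on smoke arrays, and 4.91, 4.93, 4.90 and 4.91 on control arrays. Smoke arrays 2 and 3 were the lowest of the series and smoke array 4 was within the control range. The log2 difference of -0.16 (SE 0.070, 95% confidence interval -0.31 to -0.02) did not pass the test (limma adjusted p = 0.164), beside 10.7% of miRNAs called. Without smoke array 4 it was -0.21 and passed it (adjusted p = 0.0431). That fit called 41 of the 272 miRNAs at 8 weeks, and their median over all tested was -0.11. miR-126-5p had levels of 0.73, 0.76, 0.59 and 0.88 on smoke arrays, and of 0.79, 0.95, 0.91 and 0.63 on control arrays, with a difference of -0.08 (SE 0.081, limma adjusted p = 0.658) and overlapping groups.

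At 12 weeks miR-126-3p was lower on every smoke array than on every control array, while miR-126-5p was at the same mean level in both groups. How many other miRNAs also separated without overlap at 12 weeks was not counted, so the separation is not particular to miR-126-3p on these values. miR-126-3p had levels of 4.76, 4.74 and 4.86 on smoke arrays (mean 4.79 ± 0.064, SD, n = 3), and of 5.00, 5.04, 5.05 and 5.07 on control arrays (mean 5.04 ± 0.029, SD, n = 4). The log2 difference was -0.25 (SE 0.076, 95% confidence interval -0.41 to -0.10), a signal 0.84 of control (limma adjusted p = 0.0344). Of all tested miRNAs, 9.19% passed this test, 25.7% had a lower difference and the median difference was -0.08. An exact permutation test of this comparison gave p = 0.0286, the smallest that its 35 arrangements allow, and 0.143 after adjustment over the same 15 comparisons. miR-126-5p had levels of 0.83, 0.71 and 0.80 on smoke arrays (mean 0.78 ± 0.063, SD, n = 3), and of 0.70, 0.86, 0.75 and 0.81 on control arrays (mean 0.78 ± 0.069, SD, n = 4). Its difference was 0.00 (95% confidence interval -0.18 to 0.18, limma adjusted p = 1). The 3p call at 12 weeks was lost (adjusted p up to 0.146) when smoke array 1 or 2 or control array 2, 3 or 4 of 12 weeks was left out, with differences of -0.25 to -0.23. With the 75th percentile of all probes it was -0.11 (adjusted p = 0.63), and without any scaling it turned to 0.069, where the median of all miRNAs was 0.20. The call was also lost with normexp (adjusted p = 0.587), quantile scaling (0.0751), the slide as a block (0.0608) and the replicate block (0.0649).

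**Figure D2:**
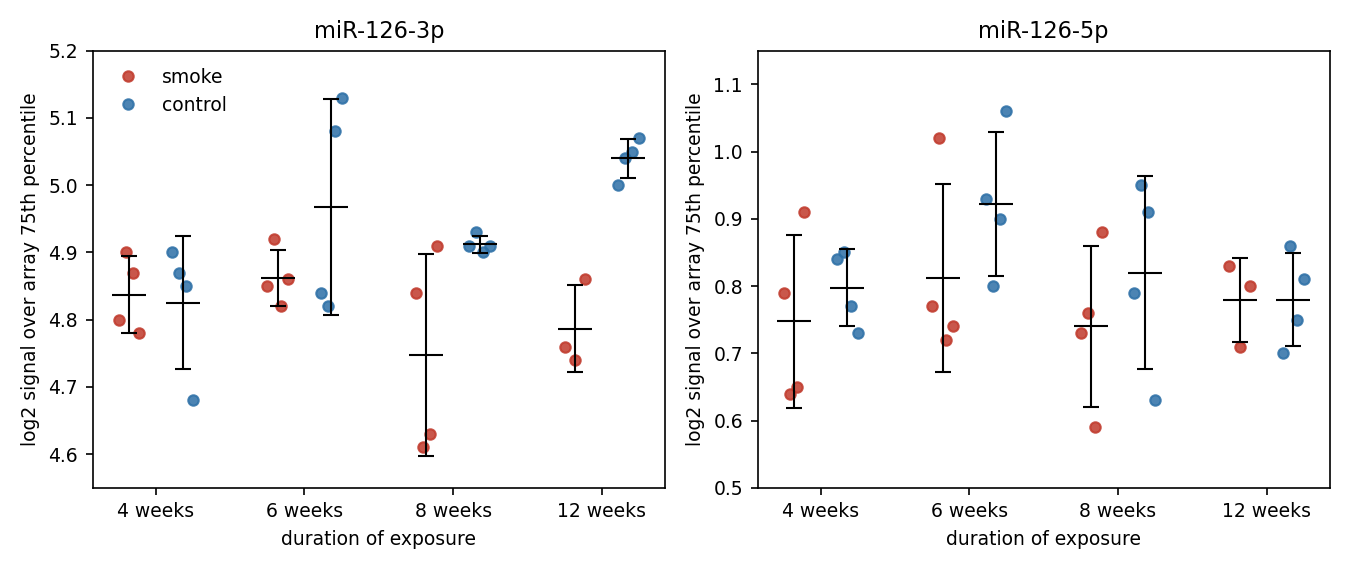
Level of miR-126-3p (left) and miR-126-5p (right) on each array (log2 signal over the array's 75th percentile, vertical axes that do not start at 0) by duration, with smoke arrays in red to the left and control arrays in blue to the right. Black bars are the mean and SD of 3 or 4 arrays. The 3 smoke arrays of 12 weeks (4.74 to 4.86) lie below the 4 control arrays (5.00 to 5.07) in miR-126-3p, and the groups overlap in every other panel and duration. How many other miRNAs also separate at 12 weeks was not counted.

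**Figure D3:**
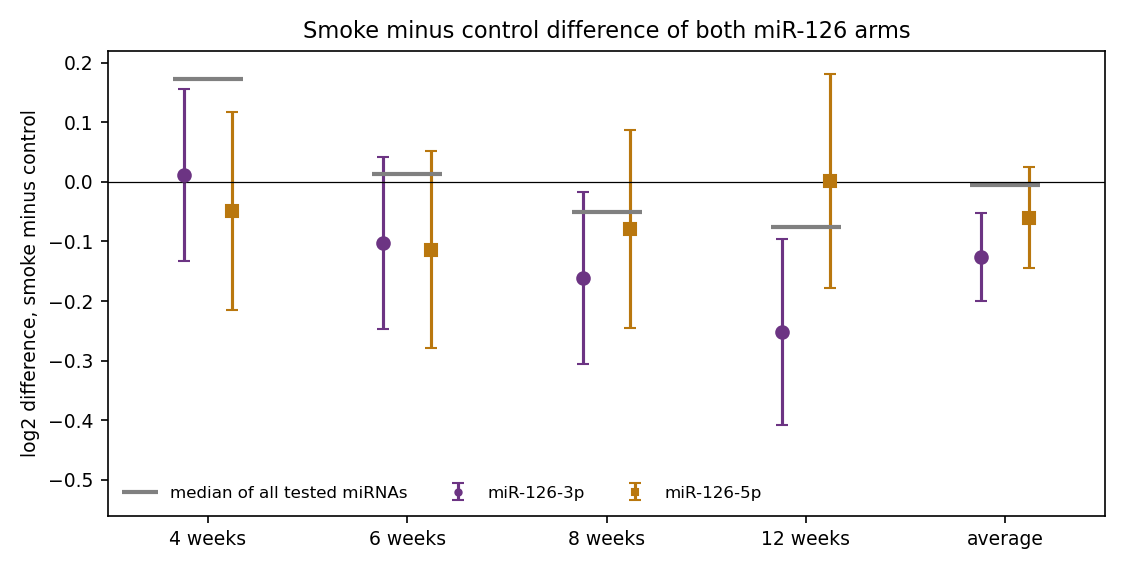
Smoke minus control difference (log2, vertical axis) of miR-126-3p (circles) and miR-126-5p (squares) at 4, 6, 8 and 12 weeks and averaged over durations, with 95% confidence intervals from the limma fit and the median of all tested miRNAs as a grey line. The 3p intervals at 8 weeks, at 12 weeks and on average lie below 0, and each 5p interval holds 0.

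The 3p differences at 4, 6, 8 and 12 weeks were 0.01, -0.10, -0.16 and -0.25, but a change of the smoke effect with duration was not called. The median difference of all tested miRNAs moved the same way, at 0.17, 0.01, -0.05 and -0.08. Relative to that median, 3p stood at -0.16, -0.115, -0.11 and -0.18, without a steady fall. The moderated F test of smoke by duration gave F = 2.31 for miR-126-3p (limma adjusted p = 0.2) and F = 0.33 for miR-126-5p (adjusted p = 0.825), beside 6.62% of miRNAs called. Among control lungs, miR-126-3p averaged 4.82 ± 0.10, 4.97 ± 0.16, 4.91 ± 0.011 and 5.04 ± 0.029 at 4, 6, 8 and 12 weeks (SD, n = 4 each). The F test over control durations did not pass for miR-126-3p (F = 3.33, limma adjusted p = 0.137, beside 6.99% of miRNAs called) or for miR-126-5p (F = 1.34, adjusted p = 0.414). It passed for 3p without scaling (adjusted p = 0.0485) and with array brightness as a covariate (0.0271), and for 5p in the deposited series table (0.0476) and with quantile scaling (0.0172). Among smoke lungs, miR-126-3p averaged 4.84 ± 0.059, 4.87 ± 0.042, 4.75 ± 0.15 and 4.79 ± 0.064 at the same durations (SD, n = 4, 4, 4 and 3). Neither arm passed the test over smoke durations (3p F = 1.04, limma adjusted p = 0.57, and 5p F = 0.32, adjusted p = 0.901, beside 3.31% of miRNAs called).

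Ordered by mean miR-126-3p, the groups ran from 12 weeks control (5.04) through 6 weeks control (4.97) and 8 weeks control (4.91) to 6 weeks smoke (4.87), 4 weeks smoke (4.84), 4 weeks control (4.82), 12 weeks smoke (4.79) and 8 weeks smoke (4.75). Only the step between 8 weeks control and 6 weeks smoke was larger than the larger SD of its 2 groups. In miR-126-5p the order ran from 6 weeks control (0.93) to 8 weeks smoke (0.74), and no step between neighbours was larger than their SD.

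Because both arms come from 1 hairpin, their difference within an array compares how they changed. The array's scaling divisor and each probe's own fixed brightness cancel in this comparison between groups. A relation to the overall brightness of the array, set out below, did not cancel. With group means taken out of both, the 3p minus 5p difference correlated with that brightness at r = -0.61 (permutation p = 0.00017, 0.0023 adjusted). Over all arrays r was -0.50 (permutation p = 0.00438, 0.0237 adjusted). The 3p minus 5p difference averaged 4.04 on the 15 smoke arrays (SD 0.12) and 4.11 on the 16 control arrays (SD 0.13). Fitted with the 48 miRNAs that had both arms tested, its smoke minus control value averaged over durations was -0.07 (SE 0.044, 95% confidence interval -0.16 to 0.03, limma adjusted p = 0.297), where 25% of the 48 pairs were called. In the deposited series table the value was -0.14 and passed (adjusted p = 0.0329).

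At 12 weeks the arm difference was 3.93, 4.03 and 4.06 on smoke arrays, and 4.31, 4.18, 4.29 and 4.26 on control arrays, without overlap. Its smoke minus control value of -0.25 (SE 0.094, 95% confidence interval -0.45 to -0.06) did not pass the test over 48 pairs (limma adjusted p = 0.147). By size the value ranked 18th of the 48 pairs, whose median was -0.08. How many other pairs also separated without overlap was not counted. The exact permutation p was 0.0286, the smallest possible, and 0.143 after adjustment. It passed with an adjusted p of 0.0374 when fitted on the 7 arrays of 12 weeks only and of 0.0394 in the deposited series table. Overall array brightness at 12 weeks was 1341 to 2029 on smoke arrays and 1062 to 1579 on control arrays. With array brightness as a covariate, chosen after seeing the data, the value was -0.20 (limma adjusted p = 0.142). Whether brightness accounts for the separation of the arrays was not tested. At 4, 6 and 8 weeks the values were 0.06, 0.01 and -0.08, with limma adjusted p of 0.565, 0.985 and 0.805.

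**Figure D4:**
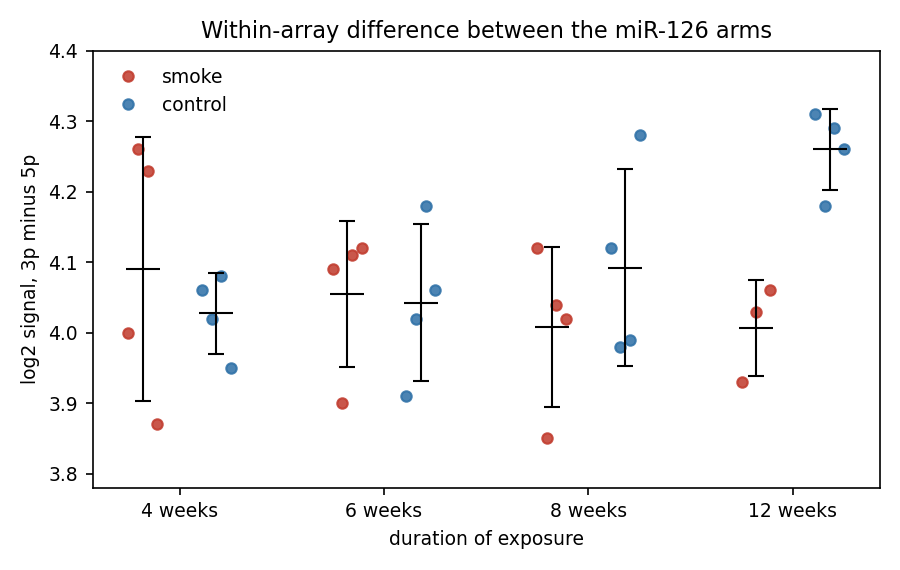
Difference between the arms on each array (log2 signal of miR-126-3p minus that of miR-126-5p, vertical axis that does not start at 0) by duration, smoke in red to the left and control in blue to the right, with mean and SD in black. The 12 weeks smoke arrays (3.93 to 4.06) lie below the 12 weeks control arrays (4.18 to 4.31), and the groups overlap at 4, 6 and 8 weeks.

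Over the 31 arrays their levels correlated with Pearson's r = 0.41 (permutation p = 0.0204, 0.0969 adjusted over 12 sets) and Spearman's rho = 0.34 (p = 0.0599, 0.18 adjusted). Without the 2 arrays farthest from the median of miR-126-3p, r was 0.30 (permutation p = 0.111). Within smoke arrays r was 0.33, within control arrays 0.33, and within slides 1 to 4 it was 0.18, 0.26, 0.74 and 0.40. Without scaling r was 0.97, a value that also holds the differences in overall brightness between arrays. Among the 206 other miRNAs detected on every array, the 5p arm ranked 102nd in likeness to the 3p arm, whose median r with them was 0.40. The 3p arm ranked 9th in likeness to the 5p arm, whose median r with the others was 0.07.

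The miRNAs whose levels ran most like miR-126-3p over the 31 arrays were miR-195-5p (r = 0.89), miR-30b-5p (r = 0.89) and miR-30d-5p (r = 0.86). Of these, miR-195-5p fell in smoke on average (log2 difference -0.20, SE 0.051, limma adjusted p = 0.00384), and miR-30b-5p (-0.12, adjusted p = 0.0936) and miR-30d-5p (-0.10, adjusted p = 0.0789) did not pass. The miRNAs most like miR-126-5p were miR-19b-3p (r = 0.51), miR-148a-3p (r = 0.49) and miR-335-5p (r = 0.44), none of which passed the averaged test. All these values share the scaling of their array, and are given as a description of the 31 arrays.

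The scaled level of miR-126-3p was set against the overall brightness of its array, which is also the divisor in that level, so a negative relation is in part built in. The 75th percentile signal before scaling ran between 1018 and 3725 units. With group means taken out of both, miR-126-3p correlated with its log2 at r = -0.70 (permutation p = 2e-05, 0.00054 adjusted over 27 relations). The rho was -0.67 (permutation p = 0.00012, 0.00162 adjusted). The same r had a median of -0.48 over the 207 miRNAs detected on every array and of -0.72 over the 20 brightest, so miR-126-3p (60th lowest) did not stand apart. Over all arrays r was -0.37 (p = 0.0389, 0.0875 adjusted; rho = -0.34), and without the 2 arrays farthest from the median signal it was -0.45. Within slides 1 to 4 r was -0.32, 0.03, -0.35 and -0.93, so slide 2 did not show it. Within smoke arrays r was -0.17 and within control arrays -0.70. Among the 20 brightest miRNAs, 18 had an r below 0 over all arrays, with a median of -0.51, against -0.27 for all 207 detected on every array. For miR-126-5p the r over all arrays was 0.16 (permutation p = 0.393).

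That brightness also differed between groups. At 8 weeks it was 1229 to 1681 on smoke arrays and 2337 to 3472 on control arrays, without overlap. At 12 weeks it was 1341 to 2029 on smoke arrays and 1062 to 1579 on control arrays. With log2 brightness as a covariate, an alternative chosen after seeing the data, the 3p difference was -0.15 on average (limma adjusted p = 0.000109), -0.28 at 8 weeks (adjusted p = 0.000759) and -0.20 at 12 weeks (adjusted p = 0.0187). The F test of smoke by duration then passed (F = 5.09, adjusted p = 0.0166). With this covariate 112 of the 272 miRNAs were called on average, 121 at 8 weeks and 42 at 12 weeks. The fit without it called 75, 29 and 25. At 8 weeks the covariate moved the median of all miRNAs to -0.17. The share that passed the F test with the covariate is not given here.

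**Figure D5:**
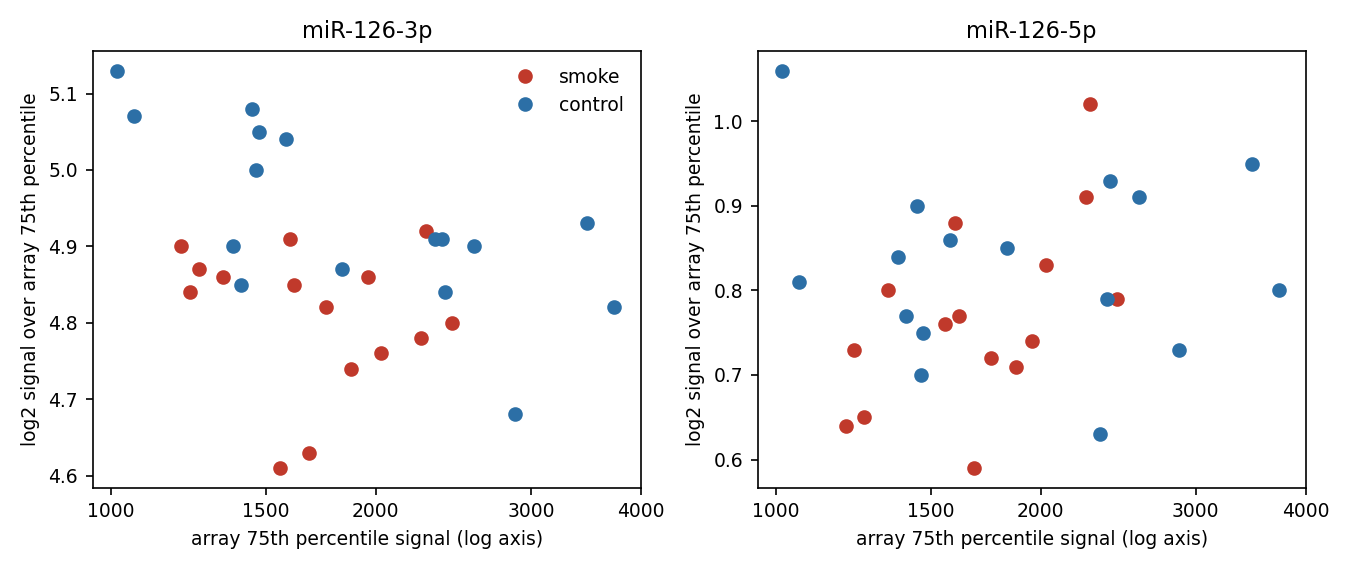
Level of miR-126-3p (left) and miR-126-5p (right; log2 signal over the array's 75th percentile, vertical axes) against the 75th percentile signal of the array before scaling (horizontal log axis, scanner units), smoke in red and control in blue, 31 arrays. Brighter arrays tend to have lower miR-126-3p (r = -0.37 over all arrays, -0.70 within control arrays), and miR-126-5p has r = 0.16 over all arrays.

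The arrays lay on 4 slides, and each slide held smoke and control arrays. Smoke minus control within slides, averaged over the durations present, was -0.11, -0.12, -0.18 and -0.05 (log2) for miR-126-3p on slides 1 to 4, where slide 4 had no smoke array of 12 weeks. Of 15 pairs of the same slide and duration, miR-126-3p was lower in smoke in 10 and miR-126-5p in 12. The corresponding values of miR-126-5p were -0.08, -0.06, -0.16 and 0.04. Smoke arrays always held the first line of positions on a slide and control arrays the second, with a fixed column for each duration, so position cannot be told apart from exposure and duration.

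miR-126 was set beside 17 other miRNAs listed as endothelial or vessel-associated, all 19 of them tested. On average over durations 0 of the 19 rose and 2 fell, miR-126-3p and miR-130a-3p, which promotes vessel growth in human endothelial cells (log2 difference -0.12, SE 0.040, limma adjusted p = 0.0307). That is 10.5% of the list, near the 12.1% of all tested miRNAs called lower. The other 17 did not pass (at an unadjusted p under 0.05, 1 of the 19 were higher and 4 lower), and the list's median was -0.06 against -0.01 for all tested miRNAs. At 4 weeks 4 rose (miR-221-3p, miR-10a-5p, miR-23a-3p and miR-24-3p, by 0.25 to 0.41), which is 21.1% of the list where 38.2% of all tested miRNAs were called and their median difference was 0.17. At 6 weeks miR-218-5p rose by 0.32, and at 8 weeks miR-100-5p fell by 0.44. Each is 5.3% of the list, where 8.09% and 10.7% of all tested miRNAs were called. At 12 weeks miR-126-3p was the 1 member that passed, again 5.3% of the list, where 9.19% of all tested miRNAs were called. The list's median at 12 weeks was the miR-126-3p value of -0.25, against -0.08 for all tested miRNAs, so as many members lay below it as above it. The members ran from miR-10a-5p (-0.46, limma adjusted p = 0.0885) to miR-218-5p (0.27, adjusted p = 0.109). The summed level of the list was 6.19 to 6.69 on smoke arrays and 6.18 to 6.70 on control arrays.

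Some markers of other cells in whole lung passed the averaged test, where 27.6% of all tested miRNAs did. Of 5 leukocyte miRNAs, miR-155-5p rose on average (0.54) and miR-142-3p and miR-142-5p fell (-0.65 each), with a summed level of 2.35 to 3.43 on smoke and 2.82 to 3.36 on control arrays. Of 5 epithelial miRNAs, miR-429-3p rose (0.27), with a summed level of 2.64 to 3.08 on smoke and 2.56 to 2.89 on control arrays. None of the 2 erythroid, 2 smooth muscle, 3 striated muscle and 1 liver miRNAs tested passed on average by limma, nor was any at an unadjusted p under 0.05. The erythroid sum was 5.93 to 6.39 on smoke and 5.72 to 6.52 on control arrays, and the smooth muscle sum 0.78 to 1.17 on smoke and 0.75 to 1.16 on control arrays. The striated muscle sum was 0.42 to 2.80 on smoke and -0.25 to 2.74 on control arrays. miR-122-5p, the main miRNA of liver, had a level of 1.57 on smoke array 3 of 12 weeks and was at the floor of -6.74 on all control arrays. The part of these cell types in the miR-126 differences was not tested. Without the 4 arrays high in liver or muscle miRNAs the averaged 3p difference was -0.13 (limma adjusted p = 0.00993), and without smoke arrays 2 and 3 of 4 weeks, which had the highest scores on the leading component of all arrays, it was -0.14 (adjusted p = 0.00564).

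The second probe of each arm gave nearly the same differences as the brighter one. For miR-126-3p the averaged difference was -0.13 by A_54_P2286 and -0.12 by A_54_P2285, and at 12 weeks -0.25 and -0.24. In a fit over 433 probes the averaged 3p calls held for both (limma adjusted p = 0.0165 and 0.024) and the 12 weeks calls for neither (0.0548 and 0.0725). For miR-126-5p the averaged difference was -0.06 by both probes, and neither passed (adjusted p = 0.328 and 0.337).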

How the data were processed

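Total RNA of lung was labelled with Cy3 and scanned, and the deposited scanner files, 1 per array, were made with Agilent Feature Extraction 10.7.3.1 per the file headers. The values used were the processed signal intensity of each spot, background-corrected by that software per the file headers and deposited without scaling between arrays. The deposited series table holds log2 values of 650 miRNAs (column medians 2.71 to 2.85), made by a scaling that the sources used here do not name, and served as an alternative.

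Outlier spots were left out (297 to 655 of the 13000 non-control spots per array) and the spots of a probe averaged. Each array's signals were divided by their 75th percentile, taken across the 385 probes that were above background on all arrays, floored at -6.74 and taken to log2. The brightest probe stood for a miRNA. Testing was limited to the 272 of 650 miRNAs that at least 75% of arrays in some group detected. One mean per group was fitted with limma 3.58.1 in R 4.3.3 to all 31 arrays, with Benjamini-Hochberg adjustment over the 272 and a threshold of 0.05. The average weights the 4 durations equally. Permutation tests used 100000 resamples, or all arrangements within a duration. The number of arrays limits the precision. Scripts were tested on simulated data.

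The arms, the marker lists and the alternatives were chosen with earlier results of these data known. The genes named are both arms with all probes, the 3 miRNAs most correlated with each, list members past the threshold, and marker miRNAs in which an array stands apart. Other list members and the miRNAs brighter than miR-126-3p were named after their values were seen. The files hold no mean spot signal, so normexp used the median spot signal. Replicate numbers pair smoke and control arrays in 7 of 15 cases (correlation over 0.1), so they were not treated as pairs. Arrays of the same slide and duration did so in 9 of 15. The main fit had no block, and the slide as a block and the replicate block served as alternatives. Genes were placed with RefSeq tables of GRCm38.p6, and 1 of the 2 arms had a mature sequence there.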

Additional observations from a re-analysis of the deposited data

Results flagged for a closer look

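In 21 sets of arrays (each arm and their difference in each group of 4 arrays), 2 held an array set apart from the others of its group, where chance gives about 1 in 20. Both were smoke array 2 of 6 weeks. Its miR-126-5p level was 1.02, against 0.72 to 0.77 on the other smoke arrays of 6 weeks. Its 3p minus 5p difference was 3.90, against 4.09 to 4.12 on those arrays. Its miR-126-3p level of 4.92 was the highest of that group and was not set apart.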

How the results depend on the processing

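The averaged miR-126-3p difference was below 0 under the 13 of 19 other settings that moved it and in all 31 fits that left out 1 array (-0.14 to -0.11, limma adjusted p 0.00276 to 0.0187), but lost its call with the 75th percentile of all probes (-0.10), no scaling (-0.27), normexp (-0.11) and quantile scaling (-0.095). Its 12 weeks call was lost with the 75th percentile of all probes (-0.11), normexp (-0.26), no detection filter (-0.25), only miRNAs detected on every array (-0.25), probe A_54_P2285 (-0.24), quantile scaling (-0.24), the slide as a block (-0.25) and the replicate block (-0.25, adjusted p = 0.0649), and turned to 0.069 without scaling. The replicate block changed no other call. Leaving out 1 array gave -0.29 to -0.23 at 12 weeks (5 of 31 lost the call, named above) and -0.21 to -0.12 at 8 weeks. At 4 weeks 3p turned to -0.27 in the deposited series table, where 96 of the 272 miRNAs were called. The scanner's summed signal added calls for 3p at 6 weeks (-0.25) and 8 weeks (-0.23) and for 5p at 6 weeks (-0.28) and on average (-0.15). With it 23 of the 272 miRNAs were called at 6 weeks, 59 at 8 weeks (median -0.16) and 109 on average. No scaling added calls at 8 weeks for 3p (-0.98) and 5p (-0.90), where it moved the median of all miRNAs to -0.86 and called 202 of the 272. It also added a call for 3p over control durations (F = 3.58). The brightness covariate, chosen after seeing the data, added 3p at 8 weeks (-0.28), smoke by duration (F = 5.09) and control durations (F = 4.75). At 8 weeks it moved the median of all miRNAs to -0.17 and called 121 of the 272. 5p over control durations passed in the deposited table (F = 5.29) and with quantile scaling (F = 7.20). The arm difference passed on average (-0.14) and at 12 weeks (-0.37) in the deposited table, and at 12 weeks with the arrays of that duration only (-0.25). Quantile scaling gives a probe the same level wherever it holds the same rank. The brighter 3p probe held its median rank on 28 of the 31 arrays. Whether this changed the calls was not tested. On average the median of all miRNAs moved to -0.15 without scaling, -0.14 with normexp and -0.11 with the summed signal. The cause of a change was not tested. Every spot of the miR-126 probes was above background.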
